A study of Homo sapiens with 9 samples.

Results

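Focal adhesions are the contacts at which integrin receptors on the cell surface are tied to the actin cytoskeleton inside. Focal adhesion kinase (FAK, the product of PTK2) is recruited to clustered integrins, binds Src-family kinases and, with them, phosphorylates adaptors such as paxillin and the CAS proteins, which bring in further signalling proteins. Integrin-linked kinase and the parvins form another bridge to actin, and talin and vinculin carry the mechanical load. In B cells and in mantle cell lymphoma these proteins are known for their part in adhesion to stroma, in migration and in homing. The 10 genes described here are PTK2, its relative PTK2B, the adaptors PXN, BCAR1 and NEDD9, and the linkers ILK, PARVB, PARVG, TLN1 and VCL, taken by symbol from the 16586 genes of the deposited expression table. All 10 were present.

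Polyadenylated RNA from Z138, an established mantle cell lymphoma line, was sequenced in 3 states with 3 libraries each. The SOX11 rescue (labelled SOX11KO+SOX11Rescue) carried the knockout and SOX11 put back, the SOX11 knockout (SOX11KO) had no rescue, and the wild type (WT) was unedited. SOX11 is a transcription factor that most mantle cell lymphomas express. The labels give each replicate number as a batch, so libraries with the same number belong together, and they do not say whether the edited lines were single clones or the replicates separate cultures. Differences between clones therefore cannot be told apart from those between SOX11 states, and p-values measure the spread between these libraries, which may be technical.

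The labels were first checked with SOX11 itself. SOX11 averaged 13127 ± 627 normalized counts in the rescue, 1033 ± 262 in the knockout and 3549 ± 474 in the wild type (SD, n = 3 each). A normalized count is a read count scaled to a common library size, recovered here from the deposited log2 values. The 3 groups did not overlap, and the rescue carried 3.70-fold the wild-type level, so it was an overexpression relative to the starting line. Transcript was left in the knockout; no label places the edited site, so the level of SOX11 RNA does not measure loss of the protein. B-cell markers were high in every library, with a summed level of 4281 to 4860 CPM (a gene's counts relative to its library's total) in the rescue, 5707 to 6473 CPM in the knockout and 4299 to 5006 CPM in the wild type, and all 8 of 8 were in the table. CD74 made up most of each B-cell sum on average and was highest in the knockout, so the higher sum there mainly follows this gene. PAX5 went the other way and was lowest in the knockout, while MS4A1 and CD79A differed little between the 3 groups. Estimated depth was 30800000 to 40800000 reads per library.

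In bulk RNA, fewer cells with a transcript and less of it per cell cannot be told apart. Levels spanned more than 3 orders of magnitude across the 10 genes. Per kilobase of exon, TLN1 had a median of 1300 normalized counts over the 9 libraries (range 1187 to 1469). ILK, with 625 (511 to 743), and PARVB, with 563 (521 to 613), came next and their ranges overlapped. VCL had 311 (237 to 339), and lay below PARVB in every library. PXN, with 165 (129 to 187), and PTK2B, with 154 (109 to 179), also overlapped, and with the longest transcript as the length their order turned to 226 for PXN and 259 for PTK2B. BCAR1 was far lower, at 4.37 (2.85 to 14.3). PARVG, at 1.22 (0.454 to 2.43), NEDD9, at 1.00 (0.475 to 2.43), and PTK2, at 0.330 (0.068 to 0.877), formed the bottom of the order, and the ranges of neighbours there overlapped.

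**Figure D1:**
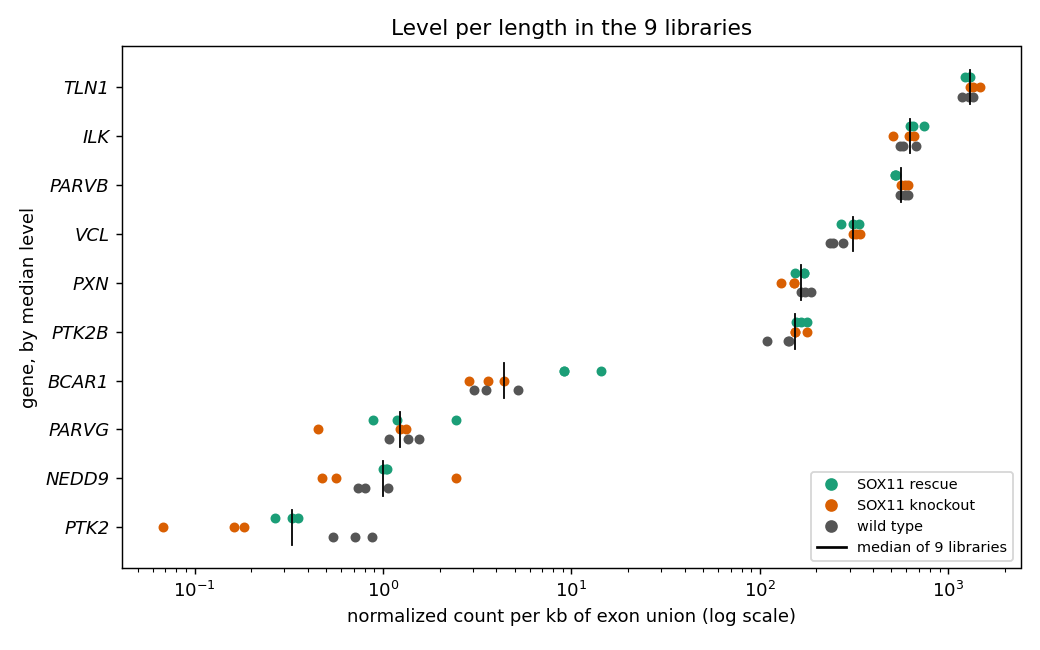
Normalized counts per kilobase of exon (log axis) for the 10 genes, ordered by their median over 9 libraries (black line); each point is 1 library, in rows for the rescue, the knockout and the wild type. TLN1 sits at the top with a median of 1300 and PTK2 at the bottom with 0.330.

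Genes with at least 1 CPM in at least 3 libraries were tested with limma, and a gene was called when its p-value was below 0.05 after Benjamini-Hochberg adjustment across all 11542 genes tested. Of the 10 genes, 7 passed this filter. PTK2, NEDD9 and PARVG stayed below 1 CPM in all 9 libraries and could be tested only in a fit with no filter. BCAR1 passed in 5 libraries, 3 of the rescue, 1 of the knockout and 1 of the wild type, so it entered through the group in which it was high.

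PTK2, the focal adhesion kinase itself, was close to undetected in Z138. It had 4.5, 4.9 and 3.7 normalized counts in the rescue, 0.93, 2.2 and 2.5 in the knockout, and 12.1, 9.8 and 7.5 in the wild type (replicates 1 to 3). The 3 groups did not overlap, with the knockout lowest and the wild type highest. These values stand for about 13 reads in the rescue, 5 in the knockout and 31 in the wild type, summed over 3 libraries; each knockout library lay under a floor of 3 reads. The ratio of summed reads per depth was 0.169 in the knockout against the wild type (95% exact interval 0.0513 to 0.439), 2.64 in the rescue against the knockout (0.882 to 9.44) and 0.446 in the rescue against the wild type (0.214 to 0.877). These intervals cover counting error only.

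In the fit with no filter, in which 8.6% of 16586 genes were called in the knockout against the wild type, PTK2 was called lower in the knockout by limma (log2 difference −0.13 ± 0.03, SE; adjusted p = 0.0353). That call depended on single libraries. Leaving out wild-type replicate 3 kept it, with an adjusted p of 0.0445, while leaving out any other library gave 0.0503 (rescue replicate 1) to 0.138 (knockout replicate 1), and a fit to those 2 groups alone gave 0.0723. On the deposited scale low genes are compressed, so that a log2 difference of −0.13 stands beside the read ratio of 0.169. PTK2 was called neither in the rescue against the knockout (log2 difference 0.05, limma adjusted p = 0.348) nor in the rescue against the wild type (−0.08, adjusted p = 0.34). PTK2 lies on chromosome 8, at 140657900 to 141002216 on the minus strand of GRCh38, and has 57 annotated transcripts, between which kallisto divides reads.

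PTK2B, also called PYK2, is the second kinase of the FAK family and the one known mainly from blood cells, where it responds to calcium and to chemokine and antigen receptors. Z138 expressed it in every library, with 1238, 1309 and 1422 normalized counts in the rescue, 1220, 1222 and 1409 in the knockout, and 863, 1127 and 1136 in the wild type. Both edited lines lay above the wild type with no overlap, and they overlapped each other. From reads summed over the 3 libraries, the ratio of PTK2B to PTK2 per kilobase of exon was 521 in the rescue (95% exact interval 305 to 980), 1314 in the knockout (563 to 4049, from 5 reads of PTK2) and 180 in the wild type (126 to 265). With the longest transcript as the length it was 316 in the rescue, 797 in the knockout and 109 in the wild type. The intervals cover counting error only, and by either length nearly all RNA of the FAK family in these libraries was PTK2B.

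PTK2B differed by a log2 of 0.20 (95% interval 0.03 to 0.37) between the knockout and the wild type, which was not called by limma (adjusted p = 0.113). The corresponding value for the rescue against the wild type was 0.23 (0.06 to 0.40; adjusted p = 0.142). With the replicate number as a block both passed, at adjusted p-values of 0.0226 and 0.025. Within the 3 batches the knockout lay above the wild type by 0.32, 0.08 and 0.21. The rescue differed from the knockout by 0.03 (−0.14 to 0.20; adjusted p = 0.823). PTK2B lies on chromosome 8 as well, at 27311482 to 27459391 on the plus strand.

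PXN encodes paxillin, the scaffold on which FAK, vinculin and the parvins meet. It had 1142, 1284 and 1273 normalized counts in the rescue, 1139, 1136 and 963 in the knockout, and 1393, 1294 and 1231 in the wild type. Every knockout library lay below every wild-type and every rescue library, with a narrow gap to the rescue, while the rescue and the wild type overlapped. The log2 difference of the knockout from the wild type was −0.18 (95% interval −0.32 to −0.05), not called by limma without the block (adjusted p = 0.0787) and called with it (0.0436). The rescue against the knockout gave 0.13 (−0.01 to 0.26; adjusted p = 0.173). PXN lies on chromosome 12, at 120210439 to 120265771 on the minus strand; the annotation also has an antisense transcript there, PXN-AS1, and the labels do not say whether counting used strand.

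Of paxillin's relatives, LPXN (leupaxin, the leukocyte form) had a median of 971 normalized counts per kilobase and TGFB1I1 (HIC-5) 3.89. Per length, leupaxin was thus the most abundant paxillin-family transcript in Z138. limma called it higher in the knockout than in the wild type. With the replicate block only, it was also called lower in the rescue than in the knockout.

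**Figure D2:**
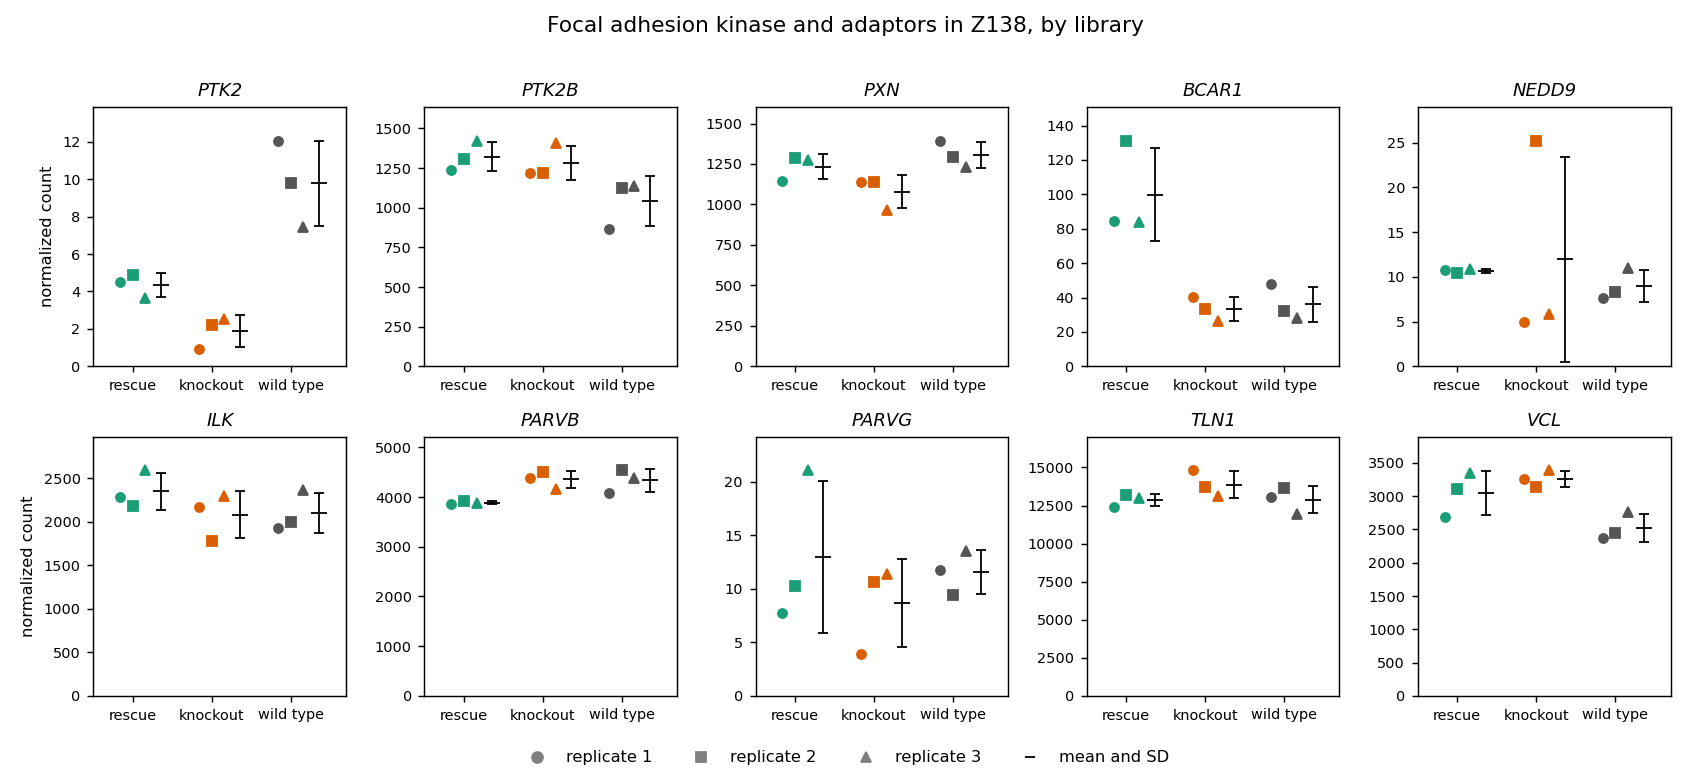
Normalized counts of the 10 genes in each library of the rescue, the knockout and the wild type (points, shaped by replicate; each panel has its own axis from 0), with the mean and SD of the 3 libraries beside them. BCAR1 stands highest in the rescue, and PTK2B stands higher in both edited lines than in the wild type. VCL stands higher in the knockout than in the wild type, and its rescue libraries overlap both.

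BCAR1 encodes p130Cas, the docking protein that FAK and Src phosphorylate and that then binds CRK. It had 84.3, 131.1 and 84.0 normalized counts in the rescue, 40.1, 33.2 and 26.2 in the knockout, and 47.7, 32.3 and 27.9 in the wild type. All 3 rescue libraries lay above all 6 others, and the knockout and the wild type overlapped. The mean in the rescue was 3.01-fold that of the knockout (log2 difference 0.30 ± 0.06, SE; limma adjusted p = 0.00297) and 2.77-fold that of the wild type (0.29 ± 0.06; adjusted p = 0.0158). The knockout against the wild type gave −0.02 (95% interval −0.14 to 0.11; adjusted p = 0.894). The difference from the knockout passed without each library in turn. The difference from the wild type lost its call without rescue replicate 2, the highest library (adjusted p = 0.0619), and without wild-type replicates 2 (0.0503) or 3 (0.0579).

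BCAR1 entered the test through the rescue, the group in which it was high, and its calls are read with that limit. It lies on chromosome 16, at 75228187 to 75268053 on the minus strand. RefSeq gives 5 starts (GRCh38.p14), and which of them Z138 uses was not tested. Their 300-base windows (250 before to 50 after the start) hold between 6 and 37 CG pairs, against a median of 14 over 35116 promoters. The 250 bases before the first start and before the CG-richest, which is the third, are shown to let the contrast be seen, with CG pairs in capitals.
BCAR1 start 1, chr16:75268008-75268257, minus strand: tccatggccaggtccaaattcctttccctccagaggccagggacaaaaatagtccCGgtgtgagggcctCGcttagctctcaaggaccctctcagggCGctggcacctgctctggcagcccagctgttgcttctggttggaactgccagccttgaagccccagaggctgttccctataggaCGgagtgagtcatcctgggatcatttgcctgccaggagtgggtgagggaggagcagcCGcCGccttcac
BCAR1 start 3, chr16:75266008-75266257, minus strand: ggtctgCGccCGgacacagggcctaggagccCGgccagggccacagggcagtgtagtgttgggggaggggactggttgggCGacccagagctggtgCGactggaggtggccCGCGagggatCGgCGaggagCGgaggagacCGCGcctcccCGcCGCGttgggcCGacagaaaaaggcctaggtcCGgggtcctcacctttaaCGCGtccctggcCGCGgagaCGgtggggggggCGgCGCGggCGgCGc

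NEDD9 (CAS-L or HEF1), the CAS protein described in lymphocytes, was even lower than BCAR1 per length. It had 10.8, 10.4 and 10.9 normalized counts in the rescue, 4.9, 25.2 and 5.8 in the knockout, and 7.7, 8.3 and 11.03 in the wild type. The 3 groups overlapped, and knockout replicate 2 stood apart from its group. No comparison called it with no filter (limma adjusted p = 0.906 in the knockout against the wild type, 0.976 in the rescue against the knockout and 0.919 in the rescue against the wild type). Of the other CAS proteins, CASS4 had a median of 0.63 normalized counts per kilobase, and EFS had no row under that symbol. NEDD9 lies on chromosome 6, at 11183298 to 11382348 on the minus strand.

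ILK, the pseudokinase that joins integrin tails to PINCH and the parvins, showed no called difference. It had 2279, 2179 and 2590 normalized counts in the rescue, 2167, 1780 and 2301 in the knockout, and 1933, 2001 and 2364 in the wild type. All 3 groups overlapped. The log2 difference was −0.01 (95% interval −0.20 to 0.18) in the knockout against the wild type, 0.14 (−0.05 to 0.32) in the rescue against the knockout and 0.13 (−0.06 to 0.31) in the rescue against the wild type, with limma adjusted p-values of 0.957, 0.289 and 0.52. ILK lies on chromosome 11, at 6603708 to 6610874 on the plus strand, and shares exonic bases with TAF10 on the other strand, which was not called either.

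PARVB and PARVG encode beta- and gamma-parvin, the partners of ILK that reach actin and paxillin, and gamma-parvin is known as the form of blood cells. PARVB had 3856, 3913 and 3886 normalized counts in the rescue, 4387, 4505 and 4169 in the knockout, and 4086, 4536 and 4388 in the wild type. The rescue lay below both other groups with no overlap, and its libraries were close to each other. The log2 difference from the knockout was −0.14 (95% interval −0.25 to −0.03), for which limma gave an adjusted p of 0.0686, and 0.0332 with the replicate block. Against the wild type it was −0.13 (−0.24 to −0.02; adjusted p = 0.199). The sum of stromal markers was also lower in the rescue, at 25.1 to 31.0 CPM. It was 39.1 to 46.8 CPM in the knockout and 36.8 to 43.1 CPM in the wild type. Of 8 markers, 6 were in the table (COL3A1 and LUM had no row). On average COL1A1 and ACTA2 made up most of each sum, and both were lowest in the rescue. PDGFRB went the other way and was highest in the rescue, while DCN was nearly equal in the 3 groups. The part of these markers in the levels of PARVB and BCAR1 was not tested.

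PARVG had 7.7, 10.2 and 21.0 normalized counts in the rescue, 3.9, 10.6 and 11.4 in the knockout, and 11.8, 9.4 and 13.5 in the wild type. The groups overlapped and no comparison called it with no filter (limma adjusted p of 0.709 in the knockout against the wild type, 0.568 in the rescue against the knockout and 0.958 in the rescue against the wild type). Z138 thus carried beta-parvin, while gamma-parvin, the form of blood cells, was below 1 CPM throughout. Per kilobase PARVB exceeded PARVG by 216- to 1304-fold over the 9 libraries. The alpha form PARVA had a median of 0.18 normalized counts per kilobase.

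The contrast is between neighbours. On chromosome 22 of GRCh38, PARVB runs from 43999211 to 44172949 and PARVG from 44172956 to 44219533, both on the plus strand, with 6 bases between them. RefSeq gives PARVB 2 starts, and which of them Z138 uses was not tested. The first has 46 CG pairs in its 300-base window, and 22.4% of all promoters have 30 or more. The second has 11, close to the 9 of the single PARVG window, and 51.1% of promoters have 14 or fewer. The 250 bases before the first start of PARVB and before that of PARVG are shown, with CG pairs in capitals. Up to base 44172949 the PARVG stretch lies inside the annotated PARVB gene, at its end. These data do not measure methylation or transcription starts.
PARVB start 1, chr22:44024052-44024301, plus strand: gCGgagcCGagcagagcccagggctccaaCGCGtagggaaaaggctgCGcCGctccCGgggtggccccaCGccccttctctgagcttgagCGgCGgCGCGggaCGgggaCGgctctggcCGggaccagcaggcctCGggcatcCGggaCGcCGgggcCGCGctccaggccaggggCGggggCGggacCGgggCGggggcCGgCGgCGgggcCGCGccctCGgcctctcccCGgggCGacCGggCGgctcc
PARVG start 1, chr22:44172701-44172950, plus strand: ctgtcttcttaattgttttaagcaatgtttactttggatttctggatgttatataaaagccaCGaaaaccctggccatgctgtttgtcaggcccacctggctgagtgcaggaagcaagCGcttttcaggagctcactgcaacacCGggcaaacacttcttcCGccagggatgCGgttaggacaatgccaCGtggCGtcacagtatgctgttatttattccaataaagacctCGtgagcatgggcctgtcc

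Promoters were also searched for ACAAT and ACAAAG, core motifs that SOX proteins are known to bind, on both strands. Of 16 windows of 8 of the 10 genes, 5 held at least 1 of them, all 3 of NEDD9, the second of PARVB and that of PARVG, against 37.6% of all promoters. Windows 1 and 2 of NEDD9 overlap and hold the same ACAAAG, so that 1 site is counted in each. ACAAT occurred in 27.4% and ACAAAG in 16.1% of all promoters. The PARVG window held 3 matches, ACAAT beginning at base −239 (on the other strand) and −70, and ACAAAG at base 6 (on the other strand), counted from the start as base 1 with no base 0. The ACAAT matches lie inside the annotated PARVB gene. No window of PXN, BCAR1, ILK, TLN1 or VCL held these letters. A match of this length is a description of the sequence.

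TLN1 encodes talin, which binds the tails of beta integrins, switches them to the active state and holds vinculin and actin. It was the most abundant of the 10 genes, with 12404, 13194 and 12969 normalized counts in the rescue, 14806, 13711 and 13104 in the knockout, and 13058, 13664 and 11959 in the wild type. The groups overlapped. The log2 differences were 0.10 (95% interval −0.03 to 0.23) in the knockout against the wild type, −0.10 (−0.24 to 0.03) in the rescue against the knockout and −0.0025 (−0.14 to 0.13) in the rescue against the wild type, none of them called by limma (adjusted p = 0.335, 0.262 and 0.99). TLN1 lies on chromosome 9, at 35696948 to 35732395 on the minus strand, and overlaps exons of CREB3 on the other strand.

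VCL encodes vinculin, which is recruited to stretched talin and strengthens its grip on actin. It had 2691, 3112 and 3345 normalized counts in the rescue, 3253, 3134 and 3387 in the knockout, and 2371, 2447 and 2766 in the wild type. All knockout libraries lay above all wild-type libraries, and the rescue overlapped both. The knockout mean was 1.29-fold that of the wild type (log2 difference 0.30 ± 0.07, SE; limma adjusted p = 0.0187, and 0.00203 with the replicate block). Within the 3 batches the knockout was higher by 0.37, 0.29 and 0.24. The call was lost without knockout replicate 1 (adjusted p = 0.0597), knockout replicate 3 (0.0713) or wild-type replicate 1 (0.0695).

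The mean of VCL in the rescue lay between those of the other groups, nearer the knockout. It differed from the knockout by −0.08 (95% interval −0.24 to 0.07; limma adjusted p = 0.459) and from the wild type by 0.21 (0.06 to 0.37; adjusted p = 0.145, and 0.0261 with the replicate block). Summed myeloid markers were also higher in both edited lines than in the wild type, and the edited lines overlapped each other. The rescue summed to 1.28 to 1.62 CPM and the knockout to 1.241 to 1.36 CPM. In the wild type the sum was 0.437 to 0.649 CPM, for 4 of 7 markers found in the table. Each of the 4 averaged below 1 CPM, and LYZ and ITGAM made up most of each sum. LYZ was highest in the rescue (0.85 CPM, against 0.64 CPM in the knockout and 0.34 CPM in the wild type). ITGAM was highest in the knockout (0.59 CPM, against 0.43 CPM in the rescue and 0.19 CPM in the wild type). CD14 was near 0 in every group, at 0.03 CPM in the rescue, 0.03 CPM in the knockout and 0.02 CPM in the wild type on average, and the part of these markers in the levels of VCL and PTK2B was not tested. VCL lies on chromosome 10, at 73995193 to 74121363 on the plus strand. It shares exonic bases with AP3M1 on the other strand, which averaged 4059 normalized counts in the rescue, 4080 in the knockout and 4042 in the wild type and was not called. The single RefSeq promoter of VCL has 30 CG pairs in 300 bases, and its 250 bases before the start are given as those of the gene called in the knockout, with CG pairs in capitals.
VCL start 1, chr10:73997866-73998115, plus strand: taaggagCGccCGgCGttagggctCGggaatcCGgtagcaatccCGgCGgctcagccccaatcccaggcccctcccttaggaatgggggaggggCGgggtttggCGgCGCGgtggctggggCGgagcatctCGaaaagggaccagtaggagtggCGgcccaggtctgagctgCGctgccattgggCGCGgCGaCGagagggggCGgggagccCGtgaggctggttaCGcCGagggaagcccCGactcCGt

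Over the comparison of the knockout with the wild type, limma called 1 of the 7 genes tested (VCL, higher), against 12.7% of all genes; with the replicate block it called 3 (VCL, PTK2B and PXN), against 21.5%. In 4 of the 10 genes the groups did not overlap (PTK2 and PXN lower, PTK2B and VCL higher in the knockout), against 24.7% of all 16586 genes. The rescue against the knockout gave 1 of 7 (BCAR1, higher), against 22.1%, and 2 with the block (BCAR1 and PARVB), against 31.2%. The groups did not overlap in 4 of 10 there (PTK2, PXN and BCAR1 higher, PARVB lower in the rescue), against 34.2%. The rescue against the wild type gave 1 of 7 (BCAR1, higher), against 4.07%, and 3 with the block (BCAR1, VCL and PTK2B), against 8.06%; 4 of 10 did not overlap (PTK2 and PARVB lower, PTK2B and BCAR1 higher in the rescue), against 18.7%. A call of 1 in 7 lies near or below the share of all genes in the comparisons with the knockout, and with so few genes no share is read as particular to them. The comparisons share libraries, so their results are not independent of each other.

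**Figure D3:**
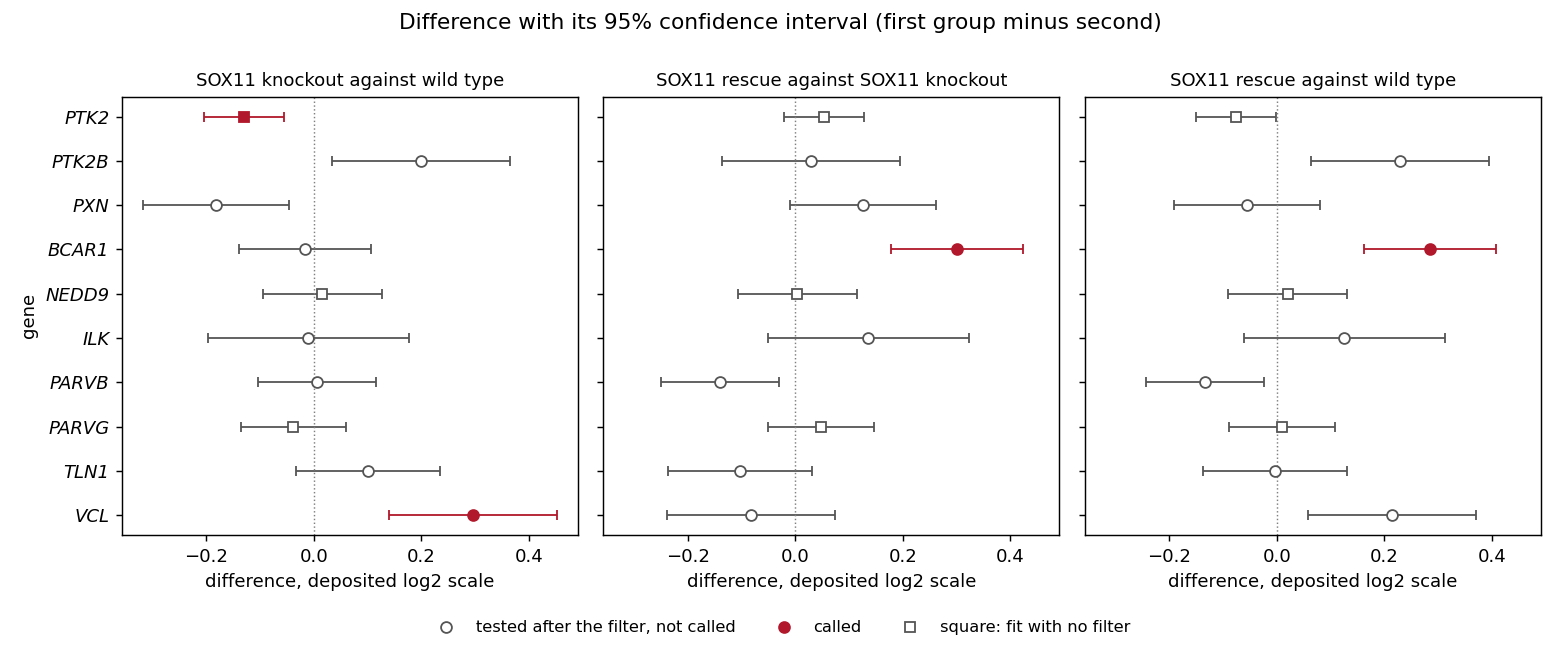
Difference of each gene on the deposited log2 scale, first-named group minus second, with its 95% confidence interval from limma; filled red marks are called, and squares come from the fit with no filter. VCL and, with no filter, PTK2 are called in the knockout against the wild type, and BCAR1 in both comparisons of the rescue.

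The genes whose pattern over the 9 libraries was most like that of PTK2 were RASL10B (Pearson r = 0.979), NETO2 (0.978) and SMAD1 (0.973). SMAD1 averaged 78.9 normalized counts in the rescue, 1.67 in the knockout and 313 in the wild type. For BCAR1 they were SH3PXD2B (r = 0.974), STX3 (0.963) and LUZP1 (0.960), and SH3PXD2B averaged 101 normalized counts in the rescue, 13.02 in the knockout and 17.9 in the wild type. For VCL they were FLOT2 (r = 0.951), SREBF1 (0.944) and PIK3IP1 (0.939). The 9 points share groups and batches, so that r describes these libraries and is given with no test. These genes were picked as those of highest r among all genes tested. The pattern of PTK2 rests on about 13 reads in the rescue, 5 in the knockout and 31 in the wild type, so it carries counting error.

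The wider pathway was described by lists of partners. Of 94 further genes tested in 7 lists, limma called 29 in the knockout against the wild type (17 higher, 12 lower in the knockout), beside 12.7% of all genes. It called 41 in the rescue against the knockout (17 higher, 24 lower in the rescue), beside 22.1% of all genes. In the rescue against the wild type it called 6 (5 higher, 1 lower in the rescue), beside 4.07% of all genes, or 16 with the replicate block, beside 8.06%. The lists were picked by hand, and the difference of these shares from those of all genes was not tested. The median log2 difference over the 94 was 0.05 in the knockout against the wild type and −0.04 in the rescue against the knockout, beside 0.0048 and −0.0065 over all genes tested.

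Among 16 kinases, phosphatases and other proteins that bind FAK or act on its substrates, limma called 6 in the knockout against the wild type (3 higher, 3 lower in the knockout), beside 12.7% of all genes, and the median log2 difference was 0.02. PTPN12, the PEST-type phosphatase that removes phosphate from p130Cas, paxillin and PYK2, had 1269, 1427 and 1287 normalized counts in the rescue, 196, 245 and 239 in the knockout, and 832, 965 and 867 in the wild type. The knockout stood below both other groups, by 3.92-fold against the wild type (limma adjusted p = 2.81e-06), and the rescue stood above both. The rescue mean was 5.86-fold that of the knockout (adjusted p = 1.62e-07) and 1.495-fold that of the wild type (adjusted p = 0.00476).

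FYN, the Src-family kinase, was almost lost from the knockout. It had 244, 194 and 210 normalized counts in the rescue, 18.4, 9.28 and 5.97 in the knockout, and 307, 293 and 178 in the wild type. The wild-type mean was 23.1-fold that of the knockout (limma adjusted p = 1.53e-05), and the rescue mean was 19.3-fold that of the knockout (adjusted p = 2.18e-05). LCK, the Src-family kinase best known from T cells, had 1481, 1604 and 1575 normalized counts in the rescue, 640, 732 and 714 in the knockout, and 709, 809 and 685 in the wild type. It was thus higher in the rescue than in either other group (2.23-fold, adjusted p = 6.58e-06, and 2.12-fold, adjusted p = 5.02e-05), like BCAR1. T-cell markers summed to 14.3 to 16.8 CPM in the rescue, 15.8 to 18.6 CPM in the knockout and 11.22 to 14.3 CPM in the wild type (7 of 8 in the table). On average CD3G made up most of each sum and was highest in the knockout. TRAC was highest in the rescue, like LCK, and lowest in the knockout, while CD3E was lowest in the wild type. The part of these markers in the level of LCK was not tested.

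**Figure D4:**
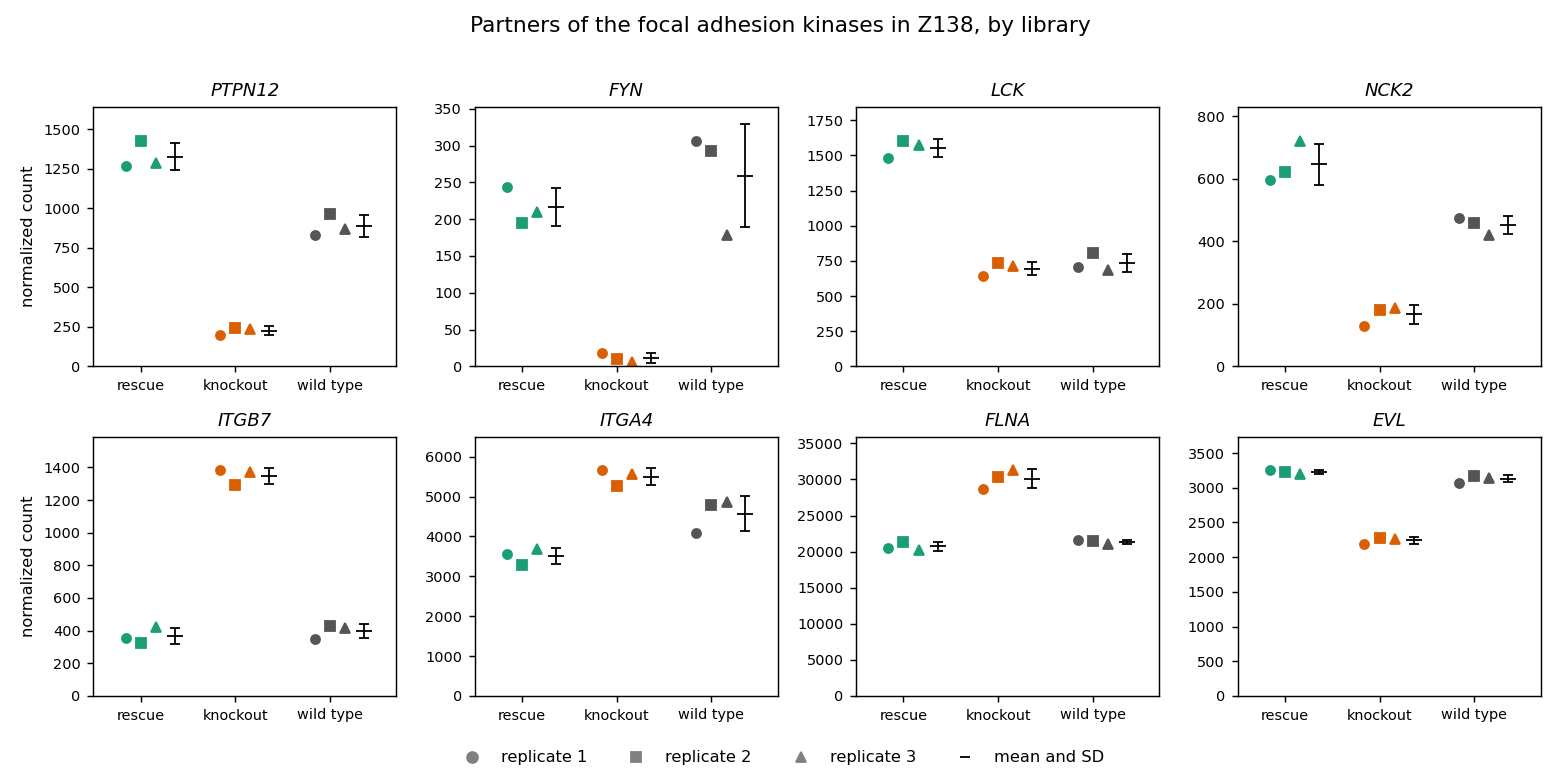
Normalized counts of 8 partner genes in each library of the rescue, the knockout and the wild type (points, shaped by replicate; each axis starts at 0), with mean and SD. PTPN12, FYN, NCK2 and EVL are lowest in the knockout, ITGB7, ITGA4 and FLNA are highest there, and LCK is highest in the rescue.

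Of 18 relatives and partners of the CAS proteins and paxillin, 6 were called in the knockout against the wild type, 3 of them higher (median 0.10), beside 12.7% of all genes. Between the rescue and the knockout 9 were called, 4 of them higher (median −0.10), beside 22.1%. With the replicate block the counts were 10 and 11, beside 21.5% and 31.2% of all genes. The rescue differed from the wild type in 1 of the 18 (NCK2), beside 4.07%, and in 4 with the block, beside 8.06%. NCK2, an adaptor with SH2 and SH3 domains, had 594, 622 and 721 normalized counts in the rescue, 131, 180 and 188 in the knockout, and 475, 458 and 419 in the wild type. The knockout stood apart below both. The wild-type mean was 2.71-fold that of the knockout (limma adjusted p = 0.000118) and the rescue mean 3.89-fold (adjusted p = 4.93e-06). SH2D3C, which binds CAS proteins through its tail, moved the same way, with means of 1220 ± 53.5 in the rescue, 741 ± 56.2 in the knockout and 989 ± 47.7 in the wild type (adjusted p = 0.0108 in the knockout against the wild type and 0.000171 in the rescue against the knockout). With the replicate block SH2D3C was also called higher in the rescue than in the wild type (adjusted p = 0.0242, against 0.0806 without it). GIT1 and ARHGEF6, which together tie paxillin to Rac and PAK, differed in opposite directions: GIT1 fell by 0.29 on the log2 scale in the knockout against the wild type (adjusted p = 0.00253), and ARHGEF6 was higher by 0.49 (adjusted p = 0.000152). ARHGEF6 had an adjusted p of 0.0918 in the rescue against the wild type, and 0.0377 with the block. GRB2, a general SH2 adaptor, fell by 0.28 on the log2 scale in the rescue against the knockout (adjusted p = 0.000922). The block also gave a call for GRB2 in the knockout against the wild type (adjusted p = 0.0482, against 0.113 without it) and in the rescue against the wild type (0.0217, against 0.0663).

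Among 13 relatives of the ILK complex, talin and kindlin, TLN2 was the gene called in the knockout against the wild type, and with the replicate block 3 were called (TLN2, KANK2 and RAP1A), beside 12.7% and 21.5% of all genes. TLN2, the second talin, averaged 365 ± 39.2 in the rescue, 490 ± 77.1 in the knockout and 233 ± 34.1 in the wild type (limma adjusted p = 0.0011 in the knockout against the wild type). With the block TLN2 was also called in the rescue against the knockout (adjusted p = 0.0487, against 0.062 without it) and in the rescue against the wild type (0.0414, against 0.0639). Per kilobase it had a median of 22.1 normalized counts, against 1300 for TLN1. In the rescue against the knockout 4 of the 13 were called, beside 22.1% of all genes, all lower in the rescue, among them KANK2, which binds talin (log2 difference −0.34; adjusted p = 0.00613), ITGB1BP1, an inhibitor of beta-1 integrin activation (−0.23; 0.00867), and RSU1, a partner of PINCH (−0.18; 0.0244). In the knockout against the wild type KANK2 had an adjusted p of 0.0777, and 0.00829 with the block. The kindlin of blood cells, FERMT3, had a median of 23.8 normalized counts per kilobase.

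Among the actin linkers, FLNA was higher in the knockout. FLNA, a filamin that crosslinks actin and binds integrin tails, had 20540, 21380 and 20240 normalized counts in the rescue, 28740, 30410 and 31260 in the knockout, and 21570, 21430 and 21040 in the wild type. It was higher in the knockout than in either other group (limma adjusted p = 5.94e-05 against the wild type and 2.34e-05 in the rescue against the knockout), while the rescue and the wild type overlapped. EVL, an actin-elongating protein of the Ena/VASP family, was the reverse, with means of 3226 ± 23.8 in the rescue, 2241 ± 47.1 in the knockout and 3130 ± 48.0 in the wild type (adjusted p = 0.000144 in the knockout against the wild type). Over the 11 linkers tested, 2 were higher and 3 lower in the knockout than in the wild type (median 0.09), beside 12.7% of all genes, and 3 higher and 4 lower in the rescue than in the knockout (median −0.09), beside 22.1%.

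Of 8 integrin chains tested, 5 were called in the knockout against the wild type and all 5 were higher in the knockout (ITGB7, ITGB3, ITGAL, ITGB2 and ITGA4; median of the 8, 0.28), beside 12.7% of all genes. With the replicate block 7 of 8 were called, ITGAE and ITGA3 added (ITGA3 adjusted p = 0.0413, against 0.0578 without the block), beside 21.5%. Of 17 chains in the table, these 8 passed the filter. ITGB3, ITGAL and ITGB2 lay near it, with lowest values of 0.82, 0.79 and 0.45 CPM. Their medians over the 9 libraries were 1.47, 1.77 and 2.88 CPM. In the wild type ITGB3 had 28.8, 45.5 and 29.3 normalized counts and ITGAL 42.7, 28.3 and 44.3. Their calls are read with that limit. ITGB7, which pairs with ITGA4 to form a homing receptor for gut vessels, had 354, 324 and 422 normalized counts in the rescue, 1382, 1293 and 1372 in the knockout, and 351, 426 and 419 in the wild type. The knockout stood 3.38-fold above the wild type (limma adjusted p = 2.23e-06), and the rescue and the wild type overlapped. ITGA4 had 3563, 3295 and 3698 in the rescue, 5659, 5261 and 5579 in the knockout, and 4082, 4783 and 4864 in the wild type, and the 3 groups did not overlap (adjusted p = 0.0376 in the knockout against the wild type and 0.000133 in the rescue against the knockout). The call against the wild type was lost without rescue replicate 1 (0.0535), any knockout replicate (0.0514 to 0.13) or wild-type replicate 1 (0.114). In the rescue against the knockout 4 of the 8 were called, all lower in the rescue (median −0.19), beside 22.1% of all genes. With the block 5 were called there, ITGB1 added and higher in the rescue, beside 31.2%. In the rescue against the wild type the 3 called were ITGB1 and ITGB2, higher in the rescue, and ITGA4, lower; they are named because the count is small, after their values were seen.

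RAC2, the Rac GTPase of blood cells, averaged 1610 ± 183 in the rescue, 2504 ± 200 in the knockout and 1428 ± 188 in the wild type (limma adjusted p = 0.000474 in the knockout against the wild type). AKT1 averaged 4595 ± 45.6 in the rescue, 3159 ± 201 in the knockout and 4008 ± 251 in the wild type (adjusted p = 0.00561 in the knockout against the wild type and 0.000167 in the rescue against the knockout). Of 5 chemokine and lipid receptors upstream of FAK, 1 was called in each of these comparisons, beside 12.7% and 22.1% of all genes. It was CXCR4, the receptor for the stromal chemokine CXCL12, lower in the knockout. Its means were 22170 ± 843 in the rescue, 19100 ± 1212 in the knockout and 23110 ± 699 in the wild type (adjusted p = 0.00929 in the knockout against the wild type and 0.0217 in the rescue against the knockout). The call of CXCR4 in the rescue against the knockout was lost without rescue replicates 2 (0.0875) or 3 (0.0661) or knockout replicate 2 (0.0828). With the replicate block 2 of 5 were called in each comparison, S1PR1 and CXCR4, beside 21.5% and 31.2% of all genes. Each was lower in the knockout than in the wild type and higher in the rescue than in the knockout.

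**Figure D5:**
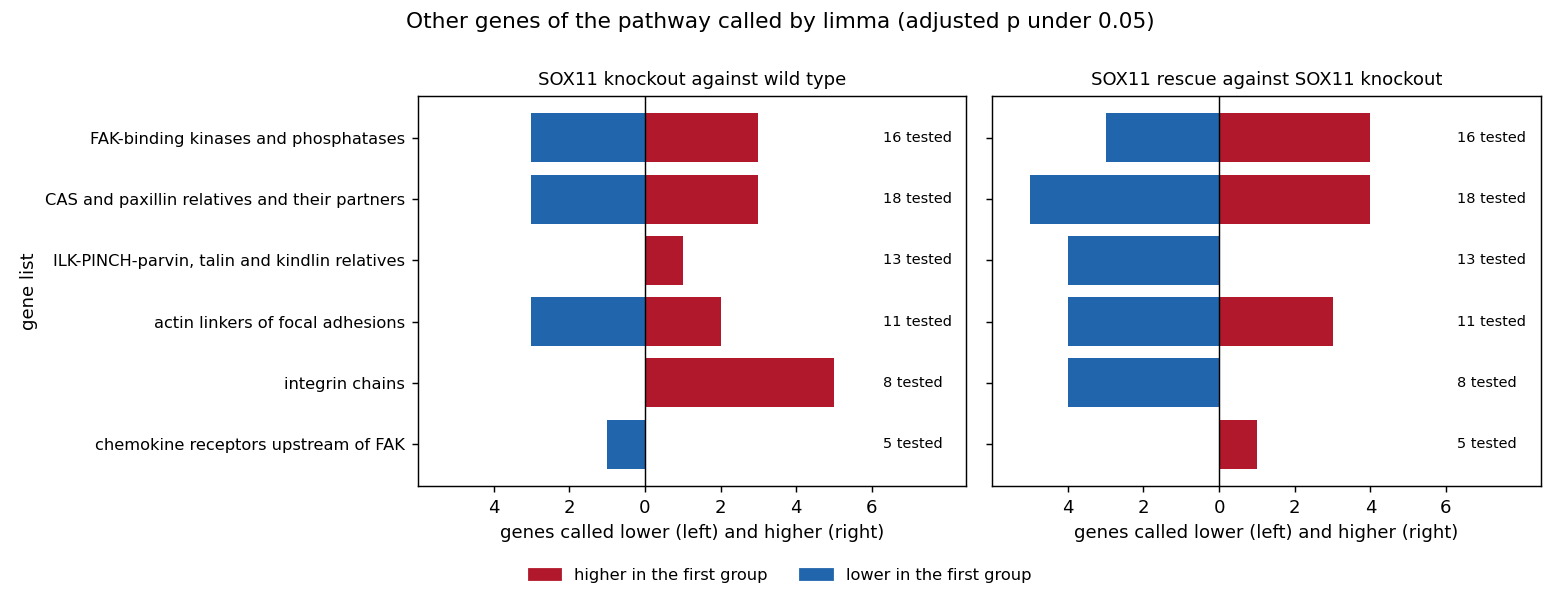
Number of genes in each of 6 partner lists called by limma, to the right where higher and to the left where lower in the first-named group, for the knockout against the wild type and the rescue against the knockout; the number tested stands beside each bar. The 8 integrin chains tested gave 5 higher in the knockout and 4 lower in the rescue, and the other lists with more than 1 call per comparison were split or ran lower in the rescue. Of all genes, 12.7% were called in the knockout against the wild type and 22.1% in the rescue against the knockout. Among the 5 chains, ITGB3, ITGAL and ITGB2 lay near the filter.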

How the data were processed

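RNA-seq of the Z138 line gave 9 libraries in 3 groups of 3. The deposited table holds log2 values made by the authors; although described as log CPM, all libraries share the lowest value of 8.598 and the values fit the closed form of a variance-stabilizing transform, which was inverted to normalized counts and CPM. The submitters' processing notes list kallisto 0.46.1 and DESeq2 1.24.0 beside R 4.3.2, FastQC 0.11.9 and Trimmomatic 0.40, and name GRCh38.p13 as the build. Per the labels' protocols, an unstranded or a stranded kit was used; which library had which is not stated there. In genes with a single transcript, 87.8% to 98.9% of low values per library lay within 0.05 of a whole read, from which depth was estimated. Within groups, libraries correlated at 0.9915 to 0.9969.

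limma 3.58.1 (R 4.3.3) was fitted to the deposited values of all 9 libraries, with group means and a trended prior variance, for genes reaching 1 CPM in 3 or more libraries. The fit had been planned on log2 CPM and was moved to the deposited scale once that was known. P-values were adjusted by Benjamini and Hochberg over all genes tested, at 0.05. The script was tested on simulated data, in the knockout against the wild type only. That simulation held no batch effect, unlike these libraries. The replicate number equals the batch in the labels; deviations of same-numbered libraries correlated at 0.187 to 0.51, and 9 of 9 libraries correlated best with their own number, so the block is printed where it changes a call of a gene reported or moves a count by over 1.5 times.

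Genes named were the 10, SOX11, up to 3 called genes of smallest adjusted p per partner list in the comparisons of the knockout with the wild type and of the rescue with the knockout, the 3 genes of highest Pearson r to PTK2 and to each called gene, and fixed paralogues. Some items of the lists are not reported here. The 10 genes and the lists were chosen with earlier results of these data known. Lengths and positions come from GENCODE 29, which matched 16461 of 16586 genes, and promoters from RefSeq (GRCh38.p14), which had 8 of the 10; PTK2 and PTK2B were not matched. Alternatives were no filter, a filter at 4 CPM, log2(CPM + 1) and log2(CPM + 0.1), median centring, quantile normalization, constant or robust prior variance, the groups compared alone, the replicate block, and leaving out each library or batch. Combining no filter with these for PTK2, NEDD9 and PARVG was added after seeing the data.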

Additional observations from a re-analysis of the deposited data

How the results depend on the processing

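SOX11 kept its direction and its call under every alternative run. With the replicate block, limma called 3 of the 7 genes in the knockout against the wild type, 2 in the rescue against the knockout and 3 in the rescue against the wild type, where the fit without it called 1 each. Of all genes, the block called 21.5%, 31.2% and 8.06% in these comparisons, where the fit without it called 12.7%, 22.1% and 4.07%. A filter at 4 CPM leaves BCAR1 out, which gave 0 in both comparisons of the rescue. Fitting the groups compared alone gave 2 in the rescue against the knockout. Leaving out libraries or batches gave 0 to 1 in the knockout against the wild type, 1 to 2 in the rescue against the knockout and 0 to 1 in the rescue against the wild type. Of the 94 partner genes, leaving out libraries or batches gave 14 to 31 calls in the knockout against the wild type (29 with all libraries), 20 to 44 in the rescue against the knockout (41 with all; 26 without rescue replicate 2 or knockout replicate 2), and 1 to 6 in the rescue against the wild type (6 with all). In the last of these the block gave 16 and the groups alone 3. Without PTK2's filter, its call in the knockout against the wild type was also lost with median centring (adjusted p = 0.0873), quantile normalization (0.0584) or a constant prior variance (0.0687), and held with log2(CPM + 1) (0.0134). Over all genes, 1470 calls in the knockout against the wild type became 2481 with the block, 938 without knockout replicate 1, and 575 and 574 without replicates 1 and 3 of every group. The 2556 of the rescue against the knockout became 1167 and 993 without replicates 1 and 3. The 470 of the rescue against the wild type became 930 with the block, 251 and 230 without rescue replicates 2 and 3, and as few as 111 without replicate 3 of every group.

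The signs that turned all belong to uncalled differences. With quantile normalization, BCAR1 was 0.0253 and PARVB −0.00449 in the knockout against the wild type, NEDD9 −0.0189 in the rescue against the knockout, and TLN1 0.0193 and PARVG −0.000764 in the rescue against the wild type. With median centring, NEDD9 was −0.0326 in the rescue against the knockout and PARVG −0.00176 in the rescue against the wild type. With log2(CPM + 1), NEDD9 was −0.00876 in the rescue against the knockout and TLN1 0.01101 in the rescue against the wild type; with log2(CPM + 0.1), TLN1 was 0.01104. Leaving out libraries or batches gave, in the knockout against the wild type, −0.0406 to 0.0183 for BCAR1, −0.0779 to 0.0714 for ILK, −0.0359 to 0.0397 for PARVB and −0.0534 to 0.0577 for NEDD9. It gave −0.00656 to 0.0763 for PTK2B and −0.033 to 0.0712 for NEDD9 in the rescue against the knockout. In the rescue against the wild type it gave −0.0996 to 0.0122 for PXN, −0.0589 to 0.0381 for TLN1 and −0.0293 to 0.0384 for PARVG. The cause was not tested. Depth limits PTK2, NEDD9 and PARVG, whose libraries hold at most 24.0 reads.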
